A study of Homo sapiens with 6 samples.

Results

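The transcripts of 7 epithelial surface proteins, EPCAM, MUC1, CEACAM1, CEACAM5, CEACAM6, CD24 and TMEM30B, were followed from NCI-H1975 lung cancer cells to a clone resistant to an EGFR kinase inhibitor. All 20 probe sets that the platform annotates to these genes were taken, of 22215 tested, and each of them is annotated to 1 gene alone. The 7 genes are among 11963 genes with a probe set of their own. They were chosen by their log2 differences between the same 2 groups of arrays, so those differences are described here without a test.

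NCI-H1975, an established line from a non-small cell lung cancer, carries mutant EGFR. One group was the parental line, sensitive to WZ4002, and the other was WZR6, a resistant clone of that line isolated after growth in rising concentrations of WZ4002. There were 3 arrays for each group (n = 3 for every group value below), and cells of both groups grew exponentially in RPMI with 5% FBS. WZR6 is 1 clone, so differences of that clone and of resistance cannot be told apart. The labels do not say whether the arrays of a group came from separate cultures, so the errors measure only the spread between these arrays, which may be technical. The sources used here leave unstated whether cells were harvested with WZ4002 present.

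EPCAM is a homophilic adhesion molecule of epithelial cells that associates with claudins and tetraspanins and is cleaved by surface proteases and gamma-secretase. MUC1 is a transmembrane mucin whose extracellular repeats carry dense O-linked glycans. CEACAM1, CEACAM5 and CEACAM6 are immunoglobulin-like adhesion glycoproteins encoded in a cluster on chromosome 19; CEACAM1 spans the membrane, whereas CEACAM5 and CEACAM6 are held by a GPI lipid anchor. CD24 is a short, heavily glycosylated GPI-anchored protein that binds P-selectin and Siglec-10, and TMEM30B is a chaperone-like subunit of the P4-ATPases, which flip phospholipids between membrane leaflets. TMEM30B is thus a membrane partner of lipid transporters rather than an adhesion molecule.

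The 7 genes fell into 2 patterns. EPCAM, TMEM30B, MUC1 and CD24 were lower in WZR6 on all 11 of their probe sets, with no overlap between the groups, and 10 of the 11 differed by at least 2-fold. The 9 probe sets of the 3 CEACAM genes differed by -0.52 to 0.19 on the log2 scale (median -0.10), 0 of them by 2-fold, and on 6 of them the groups overlapped. Over all 20 probe sets the median difference was -1.39, beside 0.03 over all probe sets tested. Groups were separated in the downward direction on 14 of the 20, beside 23.6% of all probe sets, and a decrease of 2-fold or more was seen on 10, beside 2.65%. The choice of the genes used these same differences, so nothing is read from those shares. The 7 genes did not move as 1 group: large decreases belonged to EPCAM, TMEM30B, MUC1 and CD24, and the CEACAM genes differed little.

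**Figure D1:**
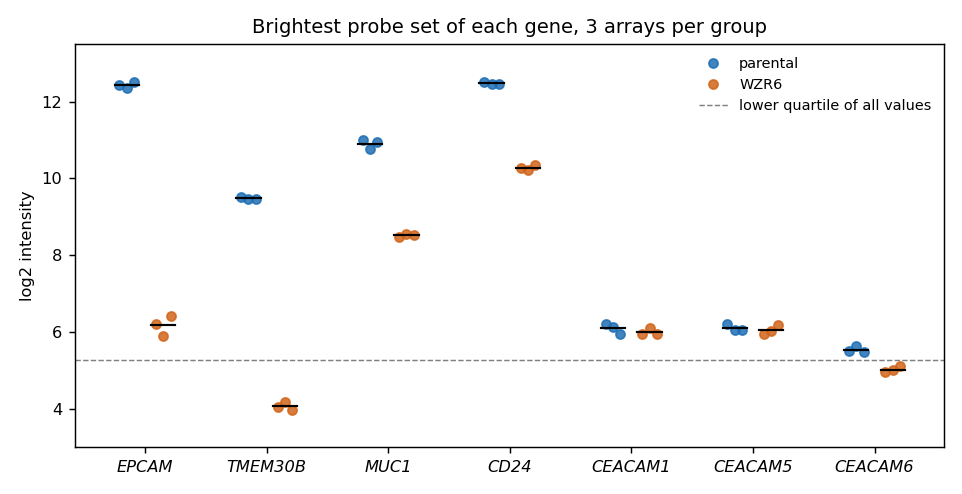
Log2 intensity of the brightest probe set of each gene on each array; blue points are the 3 parental arrays, orange points the 3 WZR6 arrays, black bars the group means, and the dashed line is the lower quartile of all values, 5.27. EPCAM, TMEM30B, MUC1 and CD24 separate clearly, CEACAM6 separates by a small step, and the groups of CEACAM1 and CEACAM5 overlap; levels of different genes are not comparable on this axis.

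Promoter sequences are shown for 3 of the genes that were lower together and for 2 CEACAM genes as a contrast. Each run is the 250 bases before an annotated RefSeq start, 5′ to 3′ on the strand of the gene, in build GRCh38.p14. Of the 7 genes, 6 had an entry among these promoters. EPCAM, the gene with the largest decrease, had none, so its promoter was not examined. Where a gene has several starts the most upstream is given. Capitals mark CACCTG or its reverse complement CAGGTG, the E-box read by zinc finger repressors of the ZEB and SNAI families.
TMEM30B (chr14:61281339-61281588, - strand): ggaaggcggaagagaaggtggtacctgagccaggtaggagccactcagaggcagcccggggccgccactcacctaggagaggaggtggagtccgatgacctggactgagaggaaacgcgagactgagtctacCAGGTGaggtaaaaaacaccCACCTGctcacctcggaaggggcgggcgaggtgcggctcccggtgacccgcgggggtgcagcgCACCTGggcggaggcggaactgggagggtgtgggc
MUC1 (chr1:155192916-155193165, - strand): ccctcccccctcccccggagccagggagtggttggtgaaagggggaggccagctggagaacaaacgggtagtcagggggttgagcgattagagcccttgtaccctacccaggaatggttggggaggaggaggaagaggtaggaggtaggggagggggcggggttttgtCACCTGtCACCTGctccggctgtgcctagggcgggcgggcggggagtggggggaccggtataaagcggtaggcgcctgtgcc
CD24 (chr6:106975628-106975877, - strand): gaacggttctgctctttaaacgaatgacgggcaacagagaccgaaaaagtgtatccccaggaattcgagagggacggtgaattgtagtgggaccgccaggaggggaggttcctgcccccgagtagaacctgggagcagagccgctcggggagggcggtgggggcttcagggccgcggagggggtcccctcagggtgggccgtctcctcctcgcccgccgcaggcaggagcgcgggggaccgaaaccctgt
CEACAM5 (chr19:41708376-41708625, + strand): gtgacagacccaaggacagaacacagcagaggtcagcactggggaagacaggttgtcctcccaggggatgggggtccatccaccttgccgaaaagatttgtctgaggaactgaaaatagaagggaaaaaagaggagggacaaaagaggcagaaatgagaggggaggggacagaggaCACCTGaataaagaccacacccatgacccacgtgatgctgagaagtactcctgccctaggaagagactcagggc
CEACAM6 (chr19:41755280-41755529, + strand): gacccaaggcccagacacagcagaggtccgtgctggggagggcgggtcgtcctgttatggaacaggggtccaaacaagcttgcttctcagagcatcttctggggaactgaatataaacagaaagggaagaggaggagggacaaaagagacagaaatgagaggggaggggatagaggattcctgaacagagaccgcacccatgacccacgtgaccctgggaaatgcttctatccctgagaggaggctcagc

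The E-box was found 3 times in the TMEM30B run, at 118, 98 and 35 bases before the start, and 2 times in the MUC1 run, at 82 and 75 bases. CEACAM5 held 1, at 74 bases, and CEACAM1 and CEACAM6 held 0. CD24 has 3 annotated starts, of which 1 had an E-box, not the one shown. Of 35116 promoter windows of this length, 17.5% held at least 1 E-box on either strand. The grainyhead motif AACCNGTT, searched on both strands, occurred in 0 of the windows of these 6 genes and in 1.49% of all windows. The GC box GGGCGG, searched on both strands, occurred 4 times in the MUC1 run, counting overlapping matches, 2 times in that of TMEM30B, 1 time each in those of CD24, CEACAM6 and CEACAM1 and 0 times in that of CEACAM5, and 42.6% of all windows held it; in TMEM30B 1 GC box shares a base with the E-box nearest the start. TATAAA was found 1 time in the MUC1 run, 24 bases before the start, and 1 time in the CEACAM6 run, 139 bases before it, and 10.7% of all windows held it on either strand. In a global alignment the CEACAM5 and CEACAM6 runs were 73.6% identical, and that of CEACAM1 was 64.4% identical to CEACAM5 and 67.6% to CEACAM6. These matches are letters in a window and were not tested as binding sites.

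EPCAM, the adhesion molecule, read 12.44, 12.34 and 12.51 (log2 intensity) on the parental arrays and 6.21, 5.89 and 6.41 on the WZR6 arrays. The lowest parental array thus lay far above the highest WZR6 array. The group means were 12.43 ± 0.08 (SD) and 6.17 ± 0.26, a difference of -6.26 ± 0.13 (SE), or 76.8-fold lower with a 95% interval of 62.3 to 94.6. It was the largest decrease among 11963 genes. The 3 WZR6 arrays spread more than the parental ones, beside a median SD of 0.07 over all probe sets in WZR6 and 0.08 in parental cells. All 3 WZR6 values stayed above the lower quartile of all values, 5.27, but below the overall median, 7.38. Their level was like that of the brightest CEACAM1 and CEACAM5 probe sets (parental means 6.09 and 6.10), so dim signal may limit this fold. EPCAM has 1 probe set on this array, of the type _s_at, which can detect several transcripts, so no second probe set bears on it. With all values floored at the overall median, 7.38, the difference was -5.05.

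TMEM30B, the flippase subunit, read 9.52, 9.47 and 9.45 in parental cells and 4.04, 4.17 and 3.97 in WZR6. All 3 WZR6 values lay below the lower quartile and all 3 parental values well above it. The means were 9.48 ± 0.03 (SD) and 4.06 ± 0.10, a difference of -5.42 ± 0.06 (SE), or 42.9-fold lower (38.6 to 47.5), the 4th largest decrease. A WZR6 level that close to background limits this fold, and with the floor at 7.38 the difference was -2.10. Its 1 probe set is of the type _at, designed to be specific to its transcript.

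MUC1, the transmembrane mucin, has 3 probe sets, and all were lower in WZR6. The brightest read 10.99, 10.76 and 10.94 in parental cells and 8.48, 8.54 and 8.51 in WZR6, with means of 10.90 ± 0.12 (SD) and 8.51 ± 0.03. The groups did not overlap, and the difference was -2.38 ± 0.07 (SE), or 5.22-fold lower (4.66 to 5.85), which placed MUC1 at rank 83 among decreases. A second _s_at probe set read 9.07, 9.20 and 9.20 against 6.84, 6.70 and 6.61, a difference of -2.44 ± 0.07. The third, of the type _x_at, which can cross-hybridise with related sequences, read 6.09, 6.23 and 6.15 against 5.17, 5.10 and 5.22, a difference of -0.99 ± 0.06. Its 3 WZR6 values lay below the lower quartile, so the dimmest of the 3 probe sets gave the smallest difference.

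CD24, the small GPI-anchored sialoglycoprotein, was measured by 6 probe sets, the most of any of the 7 genes. On the brightest, parental arrays read 12.51, 12.46 and 12.47 and WZR6 arrays 10.27, 10.21 and 10.35. The means were 12.48 ± 0.02 (SD) and 10.28 ± 0.07, a difference of -2.20 ± 0.05 (SE), or 4.60-fold lower (4.22 to 5.02), at rank 100 among decreases. All 6 probe sets separated the groups, with differences from -2.32 to -1.78 and a median of -2.21. Of their 36 values, 0 lay below the lower quartile, and the WZR6 means ran from 7.27 to 10.28. CD24 was thus lower by a like amount on dim and bright probe sets and remained well above the lower quartile in WZR6. All 6 are of the types _s_at or _x_at, so CD24 has no probe set of the more specific type here.

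**Figure D2:**
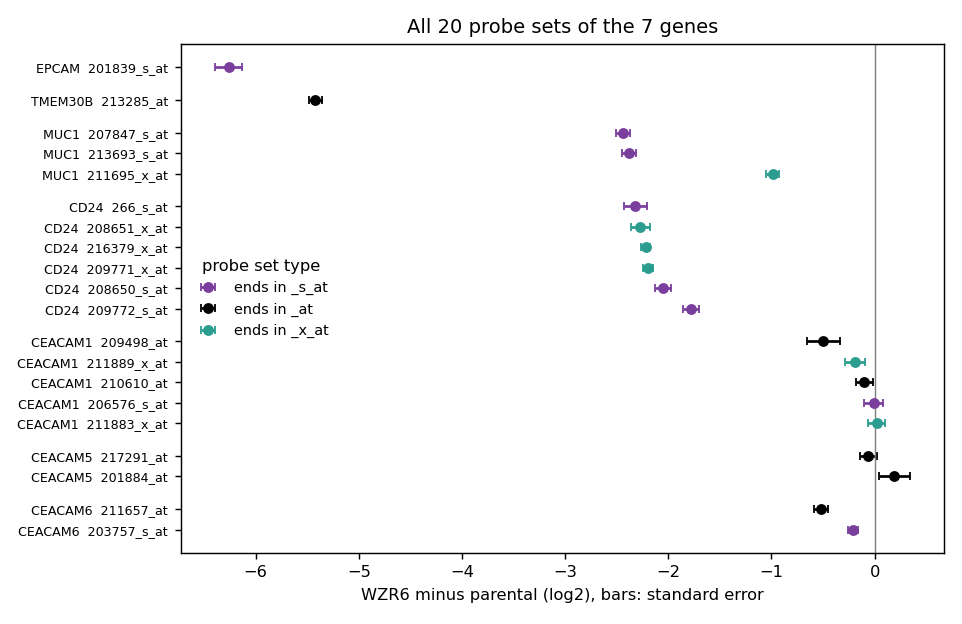
Difference of WZR6 minus parental (log2) for all 20 probe sets, 1 per row, with the standard error as bars and the probe set type by colour. The 6 CD24 probe sets lie together between -2.32 and -1.78, 2 of the 3 MUC1 probe sets lie near -2.4, and the 9 CEACAM probe sets lie between -0.52 and 0.19.

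CEACAM1, the transmembrane member of its family, has 5 probe sets with parental means between 5.03 and 6.09. The brightest read 6.19, 6.13 and 5.94 in parental cells and 5.93, 6.09 and 5.94 in WZR6, so the groups overlapped. Its difference was -0.10 ± 0.08 (SE), with a 95% interval from -0.30 to 0.09. Of the others, 1 _at probe set separated the groups, at 5.06, 5.15 and 5.64 against 4.68, 4.96 and 4.71, a difference of -0.50 ± 0.16 (interval -0.87 to -0.13). Of its 6 values, 5 lay below the lower quartile. The remaining 3 probe sets differed by -0.19, -0.01 and 0.02 and overlapped. The probe sets of CEACAM1 therefore gave different pictures at levels near background, and a change of its transcript cannot be read from them.

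CEACAM5, which encodes the carcinoembryonic antigen, overlapped between the groups on both probe sets. The brighter read 6.21, 6.05 and 6.04 in parental cells and 5.93, 6.03 and 6.18 in WZR6, a difference of -0.06 ± 0.08 (SE, interval -0.25 to 0.14). The other read 4.34, 4.51 and 4.10 against 4.60, 4.70 and 4.21, a difference of 0.19 ± 0.15, with all 6 values below the lower quartile. Both differences fell short of 2-fold on these arrays, although a compressed signal near background limits what that says about the transcript. CEACAM5 was the 1 gene of the 7 with 0 separated probe sets.

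CEACAM6 was lower by a small step on both probe sets. The brighter read 5.50, 5.64 and 5.47 in parental cells and 4.94, 5.00 and 5.11 in WZR6, a difference of -0.52 ± 0.07 (SE), or 1.44-fold lower (1.28 to 1.61). The other read 4.58, 4.64 and 4.66 against 4.43, 4.47 and 4.37, a difference of -0.21 ± 0.05, with all 6 values below the lower quartile. The groups did not overlap on either, and both steps were far smaller than those of EPCAM, TMEM30B, MUC1 and CD24. With the floor at 7.38 every CEACAM6 value was at the floor and no difference was left.

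Related genes were counted from lists that hold none of the 7, with limma and Benjamini-Hochberg adjustment over all 11963 genes and calls at an adjusted p under 0.05. Over all genes 24.5% were called higher and 23.5% lower, with a median difference of 0.02, and counts below are to be set beside these shares. In all, 155 measured genes of 10 lists held 57 lower, 35 higher and 63 not called.

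Partners of EPCAM and the proteins that cleave it were lower for 12 of 20 measured genes, higher for 3 and not called for 5 (median -0.39). FHL2, a LIM protein that binds the released intracellular part of EPCAM, fell from 10.95 ± 0.09 (SD) to 7.15 ± 0.07, or 13.9-fold (adjusted p = 1.58e-07 in limma). The Kunitz protease inhibitors SPINT2 and SPINT1 fell 9.62-fold and 6.72-fold, and their target protease ST14, matriptase, which cleaves EPCAM, differed by -2.29. With the floor SPINT1 was at -1.42 in place of -2.75. CLDN7, the claudin that binds EPCAM, fell 6.89-fold, and the tetraspanins CD9 and TSPAN8 differed by -1.82 and -1.58. The gamma-secretase subunits split, with NCSTN at 0.49, PSENEN at 0.25 and PSEN2 at -0.49, all called, and APH1A at 0.12, not called. The sheddases ADAM10 and ADAM17 were not called, at 0.03 ± 0.05 (SE) and -0.07 ± 0.04, and neither was CD44, at 0.04 ± 0.05. The protease BACE1, also on this list, was called lower, at -0.22. Of the other claudins on the list, CLDN4 and CLDN3 were called lower, at -0.96 and -0.60, and CLDN1 higher, at 0.27. CTNNB1, beta-catenin, differed by -0.30 and was called. ST14, CD9, TSPAN8, the gamma-secretase subunits, ADAM10, ADAM17, BACE1, CD44, CLDN1, CLDN3, CLDN4 and CTNNB1 were named after their values were seen.

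Of 11 other mucins measured, 7 were not called, 3 were lower and 1 was higher (median -0.05). MUC16, the transmembrane mucin that carries the CA-125 epitope, fell from 7.62 ± 0.11 (SD) to 5.84 ± 0.26, or 3.43-fold (adjusted p = 5.04e-05 in limma). Its parental arrays read 7.58, 7.54 and 7.74 and its WZR6 arrays 6.14, 5.71 and 5.68, with no overlap. With the floor its difference was -0.24 in place of -1.78. MUC4, a large transmembrane mucin, fell 1.29-fold (-0.37) on the probe set brightest over all 6 arrays, of the type _x_at. Its other probe sets differed by -0.69 (_s_at) and -2.04 (_at, called in limma without the other types), and the mean of the 3 was at -1.03. PODXL, podocalyxin, fell 1.46-fold, while the endolysosomal sialomucin CD164 rose 1.16-fold. The call of MUC4 ended with the floor, and that of CD164 ended when its probe sets were averaged (0.06).

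Enzymes that build mucin-type O-glycans, the sugars carried by MUC1 and CD24, were lower for 11 of 22 measured genes, higher for 4 and not called for 7 (median -0.20). The initiating transferases GALNT12, GALNT3 and GALNT6 fell 8.98-fold, 4.72-fold and 3.76-fold, and the fucosyltransferase FUT2 fell 2.88-fold, with adjusted p-values of 1.12e-06, 5.64e-07, 3.08e-05 and 4.92e-05 in limma. GALNT3 read 10.44, 10.43 and 10.59 in parental cells and 8.26, 8.23 and 8.27 in WZR6. The widely expressed transferases GALNT1 and GALNT2, named after their values were seen, differed by 0.17, not called, and 0.20, called. GALNT3 has a second probe set, dim in both groups (4.92 and 4.91), that differed by -0.01, and the other probe set of FUT2 differed by -0.24, so that as means of their probe sets GALNT3 was at -1.12 and FUT2 at -0.89. With the floor GALNT12 was at -1.32 and FUT2 at -0.63. The count of higher genes was 2 without parental replicate 1, without WZR6 replicate 1 or without WZR6 replicate 2.

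Flippase subunits, a list of P4-ATPases and the paralog TMEM30A, were lower for 4 of 14 measured genes, higher for 3 and not called for 7 (median -0.05). Which of these P4-ATPases pair with TMEM30B was not examined. TMEM30A, the close relative of TMEM30B, was not called, at 11.16 and 10.97 with a difference of -0.19 ± 0.08 (SE, adjusted p = 0.107 in limma); it was named as its paralog, after its value was seen. ATP10A fell from 8.26 ± 0.06 (SD) to 5.60 ± 0.22, or 6.34-fold (adjusted p = 4.48e-06 in limma). Its other probe set, dim in both groups (5.05 and 5.03), differed by -0.02; the mean of the 2 was at -1.34, and the brighter was at -0.88 with the floor. ATP8A1 fell 2.26-fold but was not called under the floor, and the mean of its 2 probe sets was at -0.70. ATP11B rose 1.37-fold. ATP8B3 was called at 0.34 with both means below the lower quartile, and this call ended with cyclic loess, with the floor and without parental replicate 2, parental replicate 3, WZR6 replicate 1 or WZR6 replicate 3 (0.29, 0.33, 0.22 and 0.39).

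GPI anchor synthesis, which CEACAM5, CEACAM6 and CD24 depend on, was higher for 9 of 20 measured genes, lower for 5 and not called for 6 (median 0.11). PIGZ and PIGN rose 2.18-fold and 2.01-fold, PIGK 1.71-fold and DPM3, a subunit of dolichol-phosphate mannose synthase, 1.66-fold, with adjusted p-values from 1.84e-05 to 1.79e-04 in limma. The lower count was 2 to 3 when any 1 of the 6 arrays was left out. Among 23 other GPI-anchored surface proteins, 7 were higher and 5 lower, and 11 were not called (median 0.01). NT5E, the ectonucleotidase CD73, fell 4.76-fold and PLAUR, the urokinase receptor, 2.04-fold, while RECK, an inhibitor of metalloproteases, and ULBP2, a ligand of NKG2D, rose 2.07-fold and 1.76-fold. As the mean of its 3 probe sets RECK was at 0.44 in place of 1.05. The 7 higher and 5 lower of 23 were not far from the shares over all genes, 24.5% and 23.5%. Nothing about CD24 is read from them.

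Relatives of the CEACAM genes were described in 2 groups. The 5 other CEACAM genes measured, CEACAM3, CEACAM4, CEACAM7, CEACAM8 and CEACAM21, named after their values were seen, were not called (differences from -0.05 to 0.25). Of 9 pregnancy-specific glycoprotein genes in the same chromosome 19 cluster, 8 were called lower, by -0.86 to -0.15. PSG4, PSG5, PSG7 and PSG9 fell 1.82-fold, 1.77-fold, 1.58-fold and 1.51-fold. The PSG genes are near-identical copies and all 9 stood on _x_at or _s_at probe sets, so their calls are uncertain as to the gene. Without those types the list had 0 calls among 6 genes. PSG4, PSG5 and PSG7 have only an _x_at probe set and were not among the 6, so this count does not bear on them. PSG9 kept an _at probe set, at -0.15 and not called. PSG5 and PSG9 lost their calls with the floor. As means of their probe sets PSG9 was at -0.32 in place of -0.59 and PSG1 at -0.27 in place of -0.50. Without parental replicate 1, 3 genes of the CEACAM and PSG list were called higher.

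Proteins that bind the members or signal from them were higher for 3 of 12 measured genes, lower for 2 and not called for 7 (median 0.07). ICAM1, the ligand of leukocyte integrins and a reported partner of MUC1, rose from 10.88 ± 0.07 (SD) to 12.01 ± 0.02, or 2.19-fold (adjusted p = 5.69e-06 in limma), and the kinase SRC rose 1.49-fold (0.58, and 0.29 as the mean of its 3 probe sets). The galectins LGALS8 and LGALS3, which bind cell surface glycans, fell 1.74-fold and 1.38-fold. The 6 probe sets of LGALS8 differed by -1.31 to 0.01, with the brightest at -0.80. PTPN6, the phosphatase SHP-1 recruited by CEACAM1, was not called, at -0.02 ± 0.07 (SE), and was named after its value was seen.

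Factors that maintain epithelial transcription and splicing were lower for 7 of 14 measured genes, higher for 2 and not called for 5 (median -0.55). The splicing regulator ESRP1 fell 26.1-fold, FOXA2 6.30-fold, the grainyhead factor GRHL2 6.17-fold and OVOL2 5.28-fold, with adjusted p-values from 1.06e-06 to 1.84e-05 in limma. With the floor ESRP1 was at -2.39, FOXA2 at -0.79 and GRHL2 at -0.68, and as means of their probe sets FOXA2 was at -1.53 and OVOL2 at -1.29. The WZR6 means of ESRP1 and OVOL2 lay below the lower quartile, and OVOL2 was not called under the floor, nor on its remaining probe set when those of types _s_at and _x_at were dropped (-0.18). Of the repressors of epithelial genes, 3 of 5 were higher and 2 were not called (median 0.52). SNAI2 read 9.83, 9.94 and 9.93 in parental cells and 10.87, 10.88 and 10.94 in WZR6, a difference of 1.00 ± 0.05 (SE, adjusted p = 1.02e-05 in limma). ZEB1 read 9.67, 9.61 and 9.72 against 10.14, 10.19 and 10.24, a difference of 0.52 ± 0.05 (adjusted p = 1.65e-04 in limma). ZEB2 differed by 1.17 ± 0.24 (adjusted p = 0.00573 in limma), with arrays from 5.30 to 5.99 and from 6.40 to 7.08, and lost its call with the floor. SNAI1 and TWIST1 differed by -0.02 and -0.01 and were not called. These are levels of transcripts, and their action on the 7 genes was not tested.

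**Figure D3:**
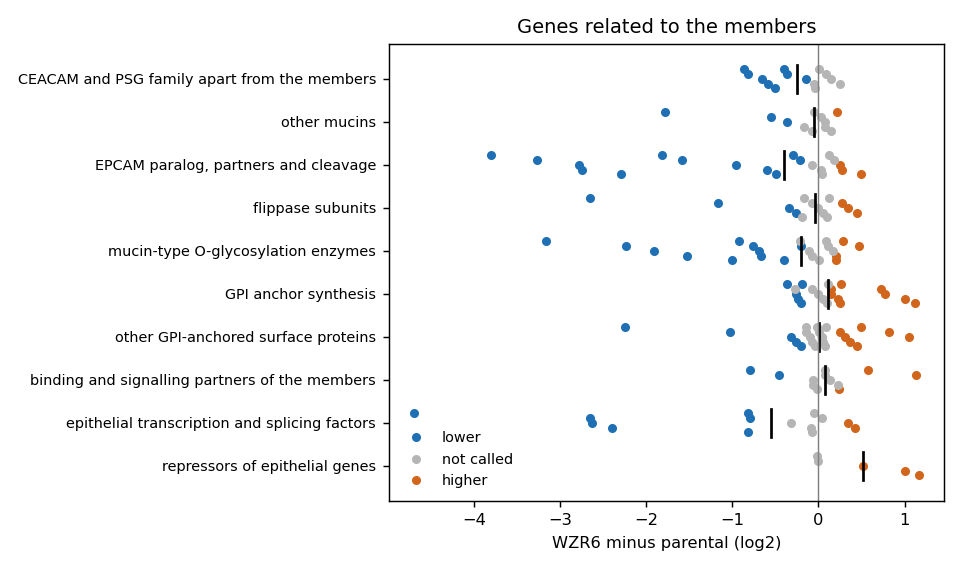
Difference of WZR6 minus parental (log2) for each measured gene of the 10 lists, 1 list per row, coloured by the limma call at an adjusted p under 0.05, with the list median as a black line. The row named for the EPCAM paralog, partners and cleavage has 12 of 20 genes lower, the row of repressors has 3 of 5 higher, and the other GPI-anchored proteins spread to both sides.

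Genes beside the 7 on their chromosomes were examined next. The 5 measured genes on each side of each gene in RefSeq order made 60 genes, of which 17 were called lower, 14 higher and 29 not (median 0.01). Around EPCAM on chromosome 2, 4 of 10 were lower and 1 higher (median -0.13, from -0.79 for CRIPT to 0.38 for RHOQ), all far from the -6.26 of EPCAM. Around TMEM30B on chromosome 14, 5 of 10 were lower and 1 higher (median -0.11), with the adjacent kinase gene PRKCH at -1.69 ± 0.07 (SE, adjusted p = 3.54e-06 in limma) and SLC38A6 at -0.80; as the mean of its 2 probe sets PRKCH was at -1.01. The genes nearest TMEM30B were therefore lower as well, by less than TMEM30B itself.

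Around MUC1 on chromosome 1, 4 of 10 neighbours were higher and 1 lower (median 0.17), with DPM3 and EFNA1 at 0.73 and 0.49, against -2.38 for MUC1. Around CD24 on chromosome 6, 5 of 10 were higher and 2 lower (median 0.16), with CRYBG1 at -0.93 and OSTM1 at 0.57. MUC1 and CD24 thus lay among neighbours whose medians were slightly above 0. Around CEACAM1, 4 of 10 were lower, all PSG genes, among them PSG7 at -0.66 and PSG1 at -0.50. CEACAM5 and CEACAM6 share the same 10 neighbours, of which 3 were higher and 1 lower (median 0.14), with RABAC1 at 0.64 and RPS19 at 0.32.

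**Figure D4:**
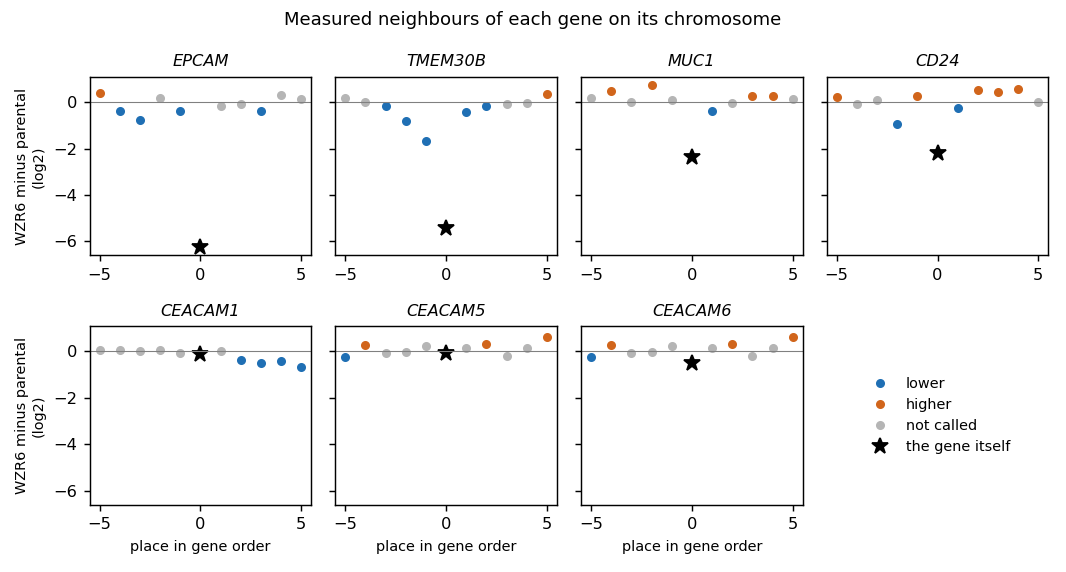
Difference of WZR6 minus parental (log2) for up to 5 measured genes on each side of each gene in chromosome order, coloured by the limma call; the star at 0 is the gene itself. The stars of EPCAM, TMEM30B, MUC1 and CD24 lie below all of their 10 neighbours, CEACAM6 lies just below its 10, and CEACAM1 and CEACAM5 lie among theirs.

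The genes most like each member were found by the root mean square distance between log2 profiles over the 6 arrays, each centred on its own mean, with the members left out. This likeness is dominated by the size of the difference between the 2 groups, measured on the same arrays, and is a description. EPCAM was nearest to CDH1, which encodes E-cadherin, at a distance of 0.30, and CP, ceruloplasmin, and GPNMB followed at 0.37 and 0.50. CDH1 read 12.00, 11.97 and 12.07 in parental cells and 6.39, 6.18 and 6.40 in WZR6, with no overlap between the groups. TMEM30B was nearest to GPNMB at 0.07, then CP and PTGS2, both at 0.15. MUC1 was nearest to CSTA, a cysteine protease inhibitor of epithelia, at 0.07, HTRA1 at 0.08 and CEMIP at 0.09. CD24 was nearest to CSTA at 0.06, LCN2, lipocalin 2, at 0.07 and GALNT3 at 0.07. CEACAM6 was nearest to THG1L, IKBKG and KLHL7, each at 0.04 with differences between -0.51 and -0.46. The flat profiles of CEACAM1 and CEACAM5 lay within 0.03 of SNAP25, OR1A1 and FUT6 and of MYL4, TMCC2 and TEK.

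As to the arrays as a whole, log2 values correlated across probe sets with r from 0.9978 to 0.9983 within a group and from 0.9815 to 0.9826 across groups, and 0 pairs of arrays were identical. The table carries no detection calls. Of 7 lung epithelial markers measured, the keratins KRT7, KRT8, KRT18 and KRT19 stood at or above 11.13 in both groups, and 4 of the 7 markers were lower in WZR6, among them NKX2-1 at -2.14; SFTPB and SFTPC were not called. Of 8 markers of leukocytes, which can carry CEACAM1 and CD24, 7 were not called and 1, CD14, was lower, PTPRC lay below the lower quartile in both groups, and the summed intensity of the 8 ran from 607 to 658 in parental cells and from 415 to 474 in WZR6. Of 7 fibroblast markers 1 was higher and 2 lower (summed intensity 2141 to 2323 and 1214 to 1234), and of 5 endothelial markers 1 was higher (266 to 295 and 288 to 311). COL3A1, LUM and PDGFRA lay below the lower quartile in both groups, as did KDR and TEK. The means of the other fibroblast and endothelial markers lay above it in both groups. COL1A1 and COL1A2 were called lower, with means falling from 9.60 to 6.60 and from 10.29 to 9.73. PDGFRB and CDH5 were called higher, with means rising from 6.55 to 7.21 and from 5.47 to 6.35. The part of these other cell types in the results was not tested.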

How the data were processed

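Total RNA of 6 samples was hybridised to 1-colour oligonucleotide arrays. Intensities per probe set were deposited on a linear scale, made by the authors with RMA, per the submitters' processing notes; the sources used here do not give its version. RMA subtracts background and quantile normalizes, and log2 differences of dim probe sets tend to be compressed in its output. Intensities ran from 9.87 to 44567, and array medians from 163 to 171. Here they were converted to log2 with no pseudocount. Of 22277 probe sets, 62 controls were left out. A gene was represented by its brightest probe set over all 6 arrays. Groups came from the titles and were compared with limma 3.58.1 in R 4.3.3 (lmFit, eBayes, two-sided), with Benjamini-Hochberg adjustment over all probe sets or all genes. Folds are ratios of geometric means. The fit was tested on simulated data. Names came from the platform's annotation, 19052 of 19064 matched by Entrez identifier to RefSeq GRCh38.p14, used only for names and gene order; promoters are RefSeq's, aligned with Biopython 1.88. Figures used matplotlib 3.10.9.

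The members and lists were chosen with earlier results of these data known. The rule for named genes took all members, up to 4 called genes with the largest difference in each list (all repressors), the 3 nearest profiles of each member and up to 2 called neighbours of each; other names are marked. Alternatives were other normalizations, a floor, a filter on dim probe sets, another variance model, a replicate block, other choices of probe set and leaving out each array. A planned comparison of protein sequences was not run, and some list genes are not analysed here. The replicate numbers were checked for pairing: same-numbered samples correlated in their deviations from the group means with r of 0.01, 0.09 and 0.23 across genes, so they were not treated as pairs.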

Additional observations from a re-analysis of the deposited data

How the results depend on the processing

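Of 88 values of the member differences under alternatives, 81 stayed within 1 SD of the reported value, and 7 moved by more. Some of the 81 were fixed in advance. The replicate block cannot change a difference here, and averaging changes nothing for EPCAM and TMEM30B, with 1 probe set each. Dropping _x_at and _s_at probe sets kept the same probe set for the CEACAM genes and TMEM30B. The floor lay below all values of MUC1 and CD24 on their brightest probe sets. The 1 value that changed sign was that of CEACAM5, whose groups overlapped, from -0.06 to 0.07 as the mean of its probe sets. With the floor at the overall median EPCAM was at -5.05, TMEM30B at -2.10 and CEACAM6 at 0.00. As the mean of their probe sets MUC1 was at -1.94, CD24 at -2.14 and CEACAM6 at -0.37. Leaving out each array in turn gave -6.38 to -6.12 for EPCAM and -5.48 to -5.38 for TMEM30B.

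Of 360 counts, 320 were within 1.5 times the reported one. Without _x_at and _s_at probe sets, with fewer genes tested, calls over all genes were 1795 higher and 1692 lower; counts lower were 0 for the CEACAM and PSG list, 7 for EPCAM partners, 6 for O-glycosylation, 3 for other GPI-anchored proteins, 0 for binding partners, 4 for epithelial factors and 11 for neighbours, and counts higher were 0 for mucins, 0 for O-glycosylation and 1 for epithelial factors. Among probe sets above the median level, again with fewer genes tested, counts lower were 3 for CEACAM and PSG, 1 for mucins, 2 for flippases, 6 for O-glycosylation and 3 for epithelial factors. With the floor they were 3 for CEACAM and PSG, 2 for flippases, 7 for O-glycosylation and 2 for GPI anchor synthesis. Averaging probe sets gave 0 mucins and 6 EPCAM partners higher. Median centring gave 1 higher in CEACAM and PSG, 5 higher among binding partners and 2 lower in GPI anchor synthesis; quantile normalization gave 1 higher in CEACAM and PSG, and the intensity trend gave 5 higher among binding partners. With the replicate block, 2946 genes were called higher and 2783 lower, 1 was higher in CEACAM and PSG and 3 were lower in GPI anchor synthesis; same-numbered arrays share only a number. Leaving out each array in turn gave 0 to 3 higher in CEACAM and PSG, 2 to 5 higher in O-glycosylation and 2 to 3 lower in GPI anchor synthesis. The cause of these shifts was not tested, including those where fewer genes were tested. Decreases were 49.0% of all gene calls, 54.1% with cyclic loess and 42.2% with median centring. Of 51 other genes, named by the rule from the lists and the neighbours, 49 were called. Of these, 41 kept their direction and call in all alternatives run, 8 lost the call in at least 1 and 0 changed sign. SNAI1 and TWIST1, not called, changed sign in some. Genes named only as nearest profiles, as markers or after their values were seen were not part of this count. Dim signal, near the lower quartile of 5.27, limits the CEACAM values and the WZR6 level of TMEM30B, and may limit that of EPCAM (mean 6.17).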
